A study of Mus musculus with 6 samples.

Results

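The cytochrome P450 (CYP) family was examined in the jejunum of irradiated mice given NeuroD-EGFP or EGFP protein. A gene was taken as a member when its symbol in the platform annotation was Cyp followed by a number, letters and a number, so Cyp51 was left out. The Illumina Mouse WG-6 beadchip carried 81 such genes on 123 of its 45281 probes. Of these, 38 genes on 51 probes were tested, because a probe was kept when its detection p-value was under 0.05 on at least 3 of 6 arrays. In all, 10777 genes on the array were tested by the same rule.

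P450 enzymes are haem proteins that insert an oxygen atom into drugs, steroids, fatty acids, bile acids and vitamins, using electrons passed on by P450 reductase or cytochrome b5. In the small intestine they sit mainly in the endoplasmic reticulum of villus enterocytes, where they oxidize swallowed compounds before these reach the liver. The CYP1 genes answer to the aryl hydrocarbon receptor, whereas many CYP2B, CYP2C and CYP3A genes answer to the nuclear receptors CAR and PXR.

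All 6 mice were male C57BL/6J, 8 weeks old, and had received 9 Gy of total body irradiation (TBI). The NeuroD-EGFP group (3 mice) was injected intraperitoneally straight afterwards with 0.1 mM of a recombinant fusion of the basic helix-loop-helix factor NeuroD with green fluorescent protein. The EGFP group (3 mice) received green fluorescent protein alone, also at 0.1 mM. Both proteins were given in 100 µl. Whole jejunum was taken 12 h later and 1 array was run per mouse. There was no group without irradiation or without injection, so the comparison was between the 2 proteins after TBI. Because whole tissue was profiled, fewer cells of a type and less RNA per cell cannot be told apart.

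The array of EGFP mouse 3 stood apart from the other 5 and went against its jejunum label. Lct, the lactase gene of the upper small intestine, had a normalized log2 intensity of 12.94, 12.95 and 13.26 in the NeuroD-EGFP mice, against 12.14, 12.95 and 4.56 in the EGFP mice, and was not detected in EGFP mouse 3. Fabp6, the bile acid binding protein of the ileum, had 5.79, 4.67 and 4.57 in the NeuroD-EGFP mice, against 4.38, 4.66 and 14.26 in the EGFP mice. Gata4, Onecut2 and Fabp1, further genes of the upper small intestine, were also undetected in EGFP mouse 3 only, while Slc51a and Slc51b, the basolateral bile acid transporter subunits, were highest there at 13.71 and 13.05. Slc10a2, the apical bile acid transporter of the ileum, was detected on none of the 6 arrays. These 10 region genes were chosen after the values of that mouse had been seen. What set this sample apart was not tested, and the P450 differences are therefore given with and without it.

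**Figure D1:**
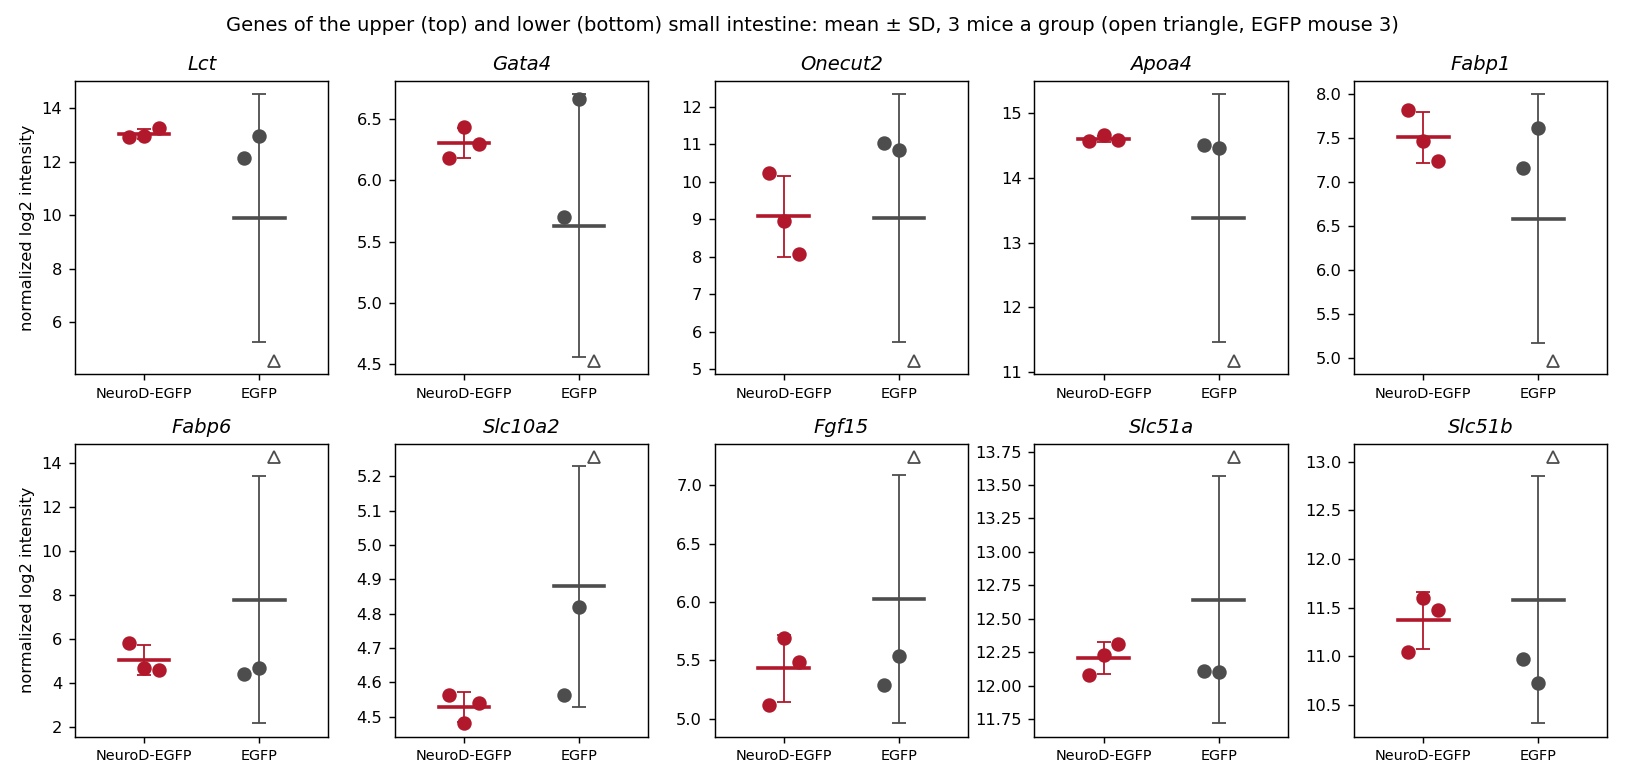
Normalized log2 intensity of 5 genes of the upper small intestine (top row) and 5 of the lower (bottom row) in each mouse, NeuroD-EGFP mice left and EGFP mice right, with group mean and SD (n = 3). The open triangle is EGFP mouse 3, which lies at 4.56 for Lct and 14.26 for Fabp6, far from the other 5 mice in both.

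EGFP mouse 3 stood apart in the P450 genes as well. It was the lowest of the 6 mice in 19 of 38 P450 genes (50%), against 23.7% of all genes tested. It lay more than 1 log2 unit outside the other 5 mice in 11 P450 genes (28.9%), against 2.7% of all genes, and none of the other 5 mice did so in any P450 gene. EGFP mouse 2 departed the other way, as the highest of the 6 mice in 17 P450 genes (44.7%), against 20.2% of all genes. The median SD between mice of a P450 gene was 0.18 in NeuroD-EGFP mice and 0.57 in EGFP mice, against 0.14 and 0.26 over all genes.

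**Figure D2:**
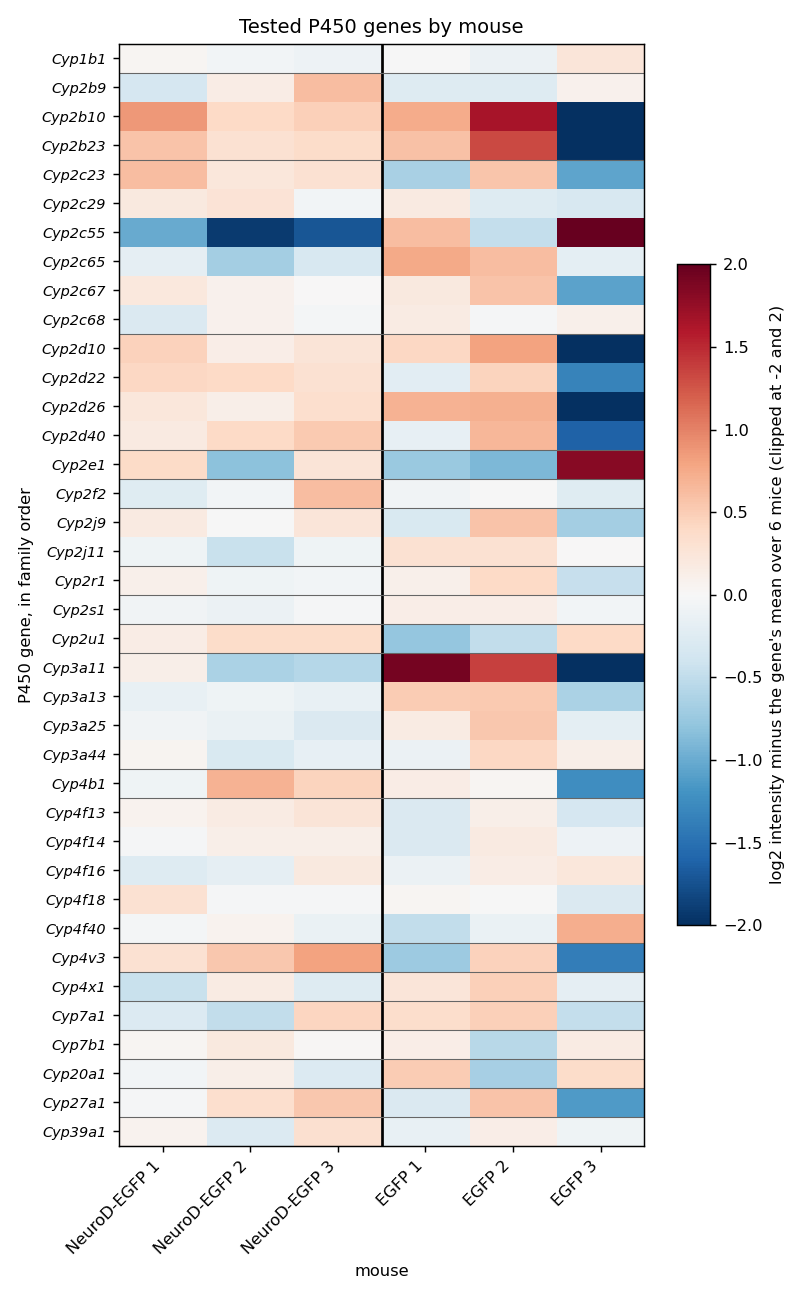
Each of the 38 tested P450 genes (rows, in family order) in each of the 6 mice (columns, NeuroD-EGFP left of the line), as log2 intensity minus the gene's mean over the 6 mice, with colour clipped at 2 log2 units either way. The column of EGFP mouse 3 holds most of the deep colours, blue in Cyp2b10, Cyp2b23 and the Cyp2d rows and red in Cyp2c55 and Cyp2e1.

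No P450 gene differed between the groups after correction for multiple tests. In limma, adjusted over all 19099 tested probes, 0 of 38 P450 genes had an adjusted p under 0.05, as did 0% of all genes, and the smallest adjusted p in the family was 0.917. At an unadjusted p under 0.05, 1 P450 gene was higher in NeuroD-EGFP mice (Cyp4v3), against 2.2% of all genes, and 3 were lower (Cyp2c65, Cyp2c55 and Cyp2j11), against 2.56% of all genes. All 3 NeuroD-EGFP mice lay above all 3 EGFP mice in 0 P450 genes (5.44% of all genes) and below them in 2, Cyp2c55 and Cyp2j11 (5.93% of all genes). The cut of the paper's volcano plot, at least 2-fold with p of at most 0.05, was applied to unadjusted limma values. By that cut, 1 P450 gene was higher (Cyp4v3), against 0.315% of all genes, and 1 was lower (Cyp2c55), against 0.241% of all genes. With the test that the methods name in place of limma, 0 P450 genes were higher and 0 lower at an unadjusted p under 0.05. Cyp2c55 passed the detection filter through its 3 EGFP mice, with 1 NeuroD-EGFP mouse above the detection limit, so its fold is set largely against background values.

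The counts depended on single mice. Without EGFP mouse 3, 0 of 38 P450 genes passed an adjusted p of 0.05 (0.148% of all genes did), 1 was higher at an unadjusted p under 0.05 (Cyp2u1; 7.26% of all genes) and 8 were lower (21.1%, against 6.71% of all genes). Those 8 were Cyp2c55, Cyp2c65, Cyp2d26, Cyp2j11, Cyp3a11, Cyp3a13, Cyp3a25 and Cyp4x1, of which Cyp2c55 and Cyp4x1 were detected in only 1 NeuroD-EGFP mouse. Cyp2u1 was detected in neither of the remaining EGFP mice, so its call is set against background values. Without EGFP mouse 2, 7 were higher (Cyp27a1, Cyp2c23, Cyp2d22, Cyp2d40, Cyp2j9, Cyp4f13 and Cyp4v3; 5.43% of all genes) and 2 were lower (Cyp2c55 and Cyp20a1; 4.06% of all genes). Without EGFP mouse 1, 1 was higher (Cyp2c29; 1.53% of all genes) and 1 was lower (Cyp2c55; 1.99% of all genes). Cyp2c29 was then detected in 2 NeuroD-EGFP mice and in neither remaining EGFP mouse, so its call is set against background values.

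Leaving out a NeuroD-EGFP mouse left no P450 gene higher at an unadjusted p under 0.05 in limma, against 1.53%, 1.18% and 1.34% of all genes without mouse 1, 2 and 3. The only lower gene was Cyp2c65, which passed without mouse 1 or 3 (1.68% and 1.74% of all genes) and not without mouse 2, where 0 P450 genes were lower (1.51% of all genes).

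Over the family, differences lay on both sides of 0. Of the 38 genes, 21 had a positive and 17 a negative difference, and 50.8% of all genes were positive. The median difference of the P450 genes, NeuroD-EGFP minus EGFP, was 0.16 log2 units, against 0.005 over all genes. Without EGFP mouse 3 it was 0.011, against 0.010 over all genes, and without NeuroD-EGFP mouse 3 it was 0.019, with 19 genes on either side of 0. Single P450 genes differed by more in size, with a median absolute difference of 0.28 against 0.15 over all genes, and were also less precise, with a median standard error (SE) of 0.30 against 0.19.

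**Figure D3:**
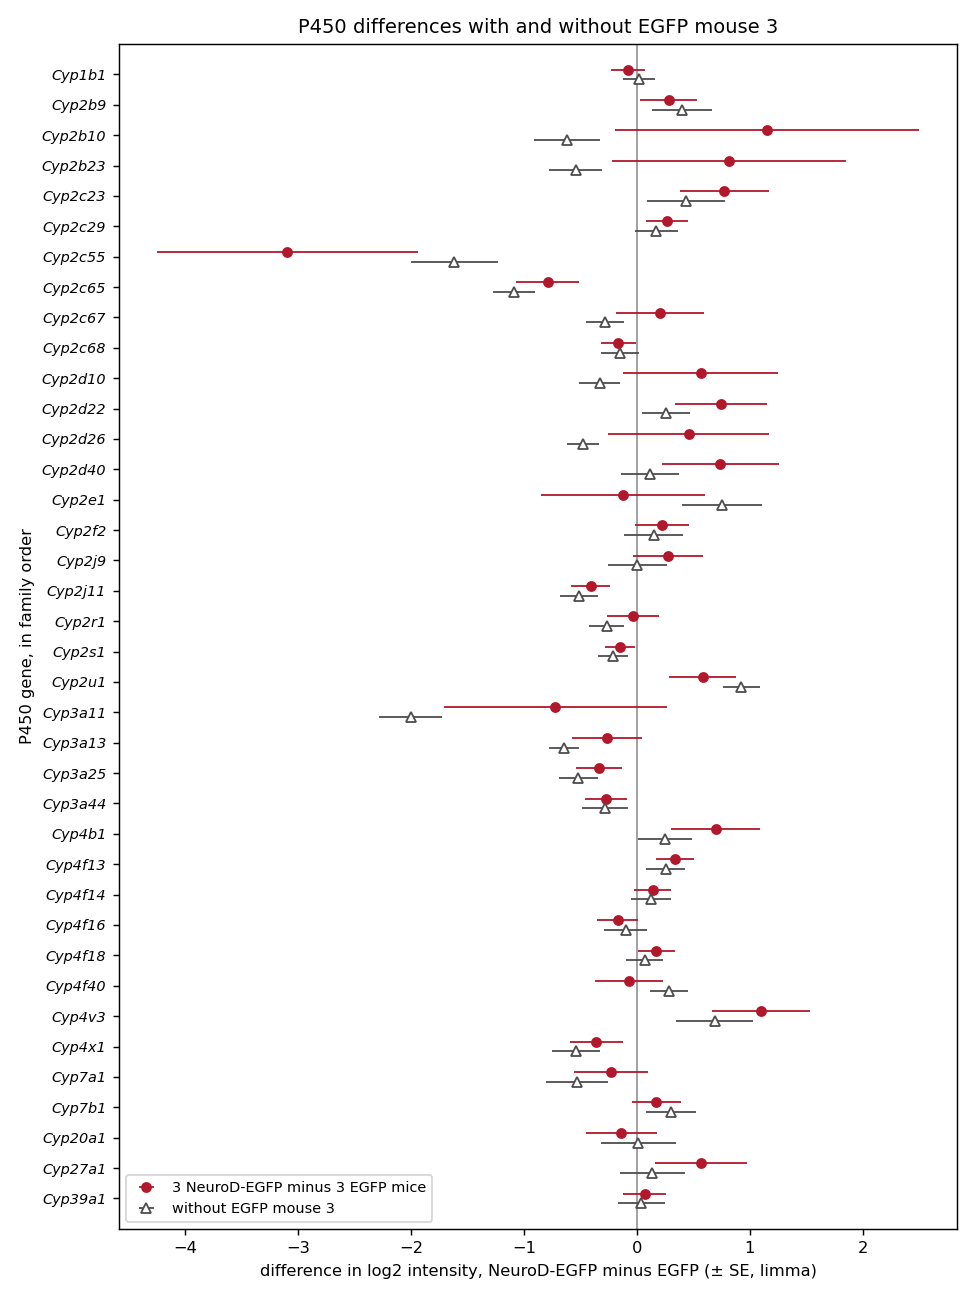
Difference in log2 intensity, NeuroD-EGFP minus EGFP, with its SE from limma for each tested P450 gene, over all 6 mice (filled circles) and without EGFP mouse 3 (open triangles). Cyp2b10 passes to the other side of 0 (1.16 and -0.62), as do Cyp2b23, Cyp2d10 and Cyp2d26, and Cyp3a11 moves to -2.0.

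Promoters are shown for 5 members on which the results turn: the pair of lower Cyp2c genes, which are neighbouring protein-coding genes on chromosome 19, Cyp4v3, and the Cyp3a and Cyp2b genes that changed most when EGFP mouse 3 was left out. Each is the RefSeq window from 250 bases before to 50 after the start in GRCm38.p6, read 5′ to 3′ on the gene's strand. Capitals mark E-boxes, CANNTG, the motif that basic helix-loop-helix factors such as NeuroD bind. The windows are chr19:39060756-39061055 on the plus strand for Cyp2c65, chr19:39006769-39007068 on the plus strand for Cyp2c55, chr8:45333114-45333413 on the minus strand for Cyp4v3, chr5:145879805-145880104 on the minus strand for Cyp3a11 and chr7:25897408-25897707 on the plus strand for Cyp2b10.
Cyp2c65: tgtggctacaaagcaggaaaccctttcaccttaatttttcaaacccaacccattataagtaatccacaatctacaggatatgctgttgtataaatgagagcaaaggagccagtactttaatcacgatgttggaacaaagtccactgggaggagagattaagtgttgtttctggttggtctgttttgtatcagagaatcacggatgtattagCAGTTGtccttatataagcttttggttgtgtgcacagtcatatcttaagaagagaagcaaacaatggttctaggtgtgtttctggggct
Cyp2c55: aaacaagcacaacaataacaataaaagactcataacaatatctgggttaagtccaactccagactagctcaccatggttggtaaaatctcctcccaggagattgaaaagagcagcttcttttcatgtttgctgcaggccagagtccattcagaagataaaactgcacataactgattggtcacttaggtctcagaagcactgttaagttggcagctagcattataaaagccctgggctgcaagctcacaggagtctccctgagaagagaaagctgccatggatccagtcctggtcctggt
Cyp4v3: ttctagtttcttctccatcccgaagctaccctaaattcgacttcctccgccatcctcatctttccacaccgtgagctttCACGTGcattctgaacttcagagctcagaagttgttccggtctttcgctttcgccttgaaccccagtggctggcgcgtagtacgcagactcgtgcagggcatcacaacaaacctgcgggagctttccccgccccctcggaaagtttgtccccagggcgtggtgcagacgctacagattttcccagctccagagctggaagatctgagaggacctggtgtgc
Cyp3a11: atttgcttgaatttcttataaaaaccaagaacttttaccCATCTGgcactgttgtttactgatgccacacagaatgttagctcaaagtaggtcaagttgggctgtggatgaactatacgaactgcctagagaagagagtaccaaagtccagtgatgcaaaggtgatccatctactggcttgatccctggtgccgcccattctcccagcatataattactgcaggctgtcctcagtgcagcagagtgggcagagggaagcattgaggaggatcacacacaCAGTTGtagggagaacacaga
Cyp2b10: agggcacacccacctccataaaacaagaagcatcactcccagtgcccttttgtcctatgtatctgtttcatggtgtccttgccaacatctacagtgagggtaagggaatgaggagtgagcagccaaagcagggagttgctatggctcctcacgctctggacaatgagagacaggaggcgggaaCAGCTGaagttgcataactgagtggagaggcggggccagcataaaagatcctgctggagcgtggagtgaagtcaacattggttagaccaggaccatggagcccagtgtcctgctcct

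The RefSeq table held a window for 31 of the 38 tested P450 genes, of which 26 (83.9%) had a CANNTG on either strand, against 72.1% of all 27025 windows. The form CAGATG was in 5 of the 31 windows (16.1%, against 17.2% of all) and CAGCTG in 10 (32.3%, against 16.1% of all), and both forms are also counted as CANNTG. The aryl hydrocarbon receptor core GCGTG was in 9 of them (29%, against 32.5% of all). Cyp2c65 had 1 E-box (CAGTTG) and Cyp4v3 had 1 (CACGTG), whereas Cyp2c55 and Cyp2j11 had none in the window. A match is a run of letters and no measure of binding.

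The CYP2C enzymes oxidize drugs and turn arachidonic acid into epoxides and hydroxy acids. Of 13 on the array, 6 were tested, 3 with a positive and 3 with a negative difference. Cyp2c65 had the lowest p of the family. Its log2 intensity was 11.21, 10.72 and 11.07 in the NeuroD-EGFP mice, against 12.16, 12.02 and 11.20 in the EGFP mice. NeuroD-EGFP mouse 1 lay just above EGFP mouse 3, so the groups overlapped by that pair alone. The difference was -0.79 ± 0.28 (SE), 1.73-fold lower, with an unadjusted p of 0.0248 and an adjusted p of 0.917 in limma. All 4 Cyp2c65 probes were lower, by -0.73 to -0.83. Without EGFP mouse 3 the difference was -1.08 ± 0.19, 2.12-fold lower, with an unadjusted p of 0.000708 and an adjusted p of 0.122 in limma.

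Cyp2c55, the neighbour of Cyp2c65, which makes hydroxy fatty acids, was at or near the detection limit in the NeuroD-EGFP mice. Its log2 intensity was 5.63, 4.71 and 4.92 in the NeuroD-EGFP mice, against 7.25, 6.16 and 11.14 in the EGFP mice. Every NeuroD-EGFP mouse was below every EGFP mouse, and the probe was detected in 1 NeuroD-EGFP and 3 EGFP mice, passing the filter through the EGFP group. The fitted difference, imprecise against values at background, was -3.09 ± 1.15, with an unadjusted p of 0.0307 and an adjusted p of 0.917 in limma. EGFP mouse 3 was far the highest, and without it the difference was -1.62 ± 0.38 (unadjusted p 0.00429, adjusted p 0.181 in limma). Thus EGFP mouse 3 was the lowest EGFP mouse for Cyp2c65 and the highest for Cyp2c55.

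The other 4 Cyp2c genes gave smaller values. Cyp2c23, an arachidonic acid epoxygenase, had 7.37, 6.97 and 7.05 in the NeuroD-EGFP mice, against 6.09, 7.30 and 5.68 in the EGFP mice. EGFP mouse 2 lay among the NeuroD-EGFP mice and the other two EGFP mice below them. The difference was 0.77 ± 0.39 (unadjusted p 0.0891, adjusted p 0.917 in limma), and 0.44 without EGFP mouse 3. Cyp2c29 and Cyp2c67 had differences of 0.27 and 0.20, and Cyp2c68 one of -0.16. Without EGFP mouse 3 these were 0.17, -0.28 and -0.15 in that order. The Cyp2c29 probe was detected on 3 arrays, at values near the detection limit. A second Cyp2c29 probe, not tested, lay the other way. It had 4.77, 5.06 and 5.03 in the NeuroD-EGFP mice, against 6.02, 5.62 and 5.22 in the EGFP mice.

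**Figure D4:**
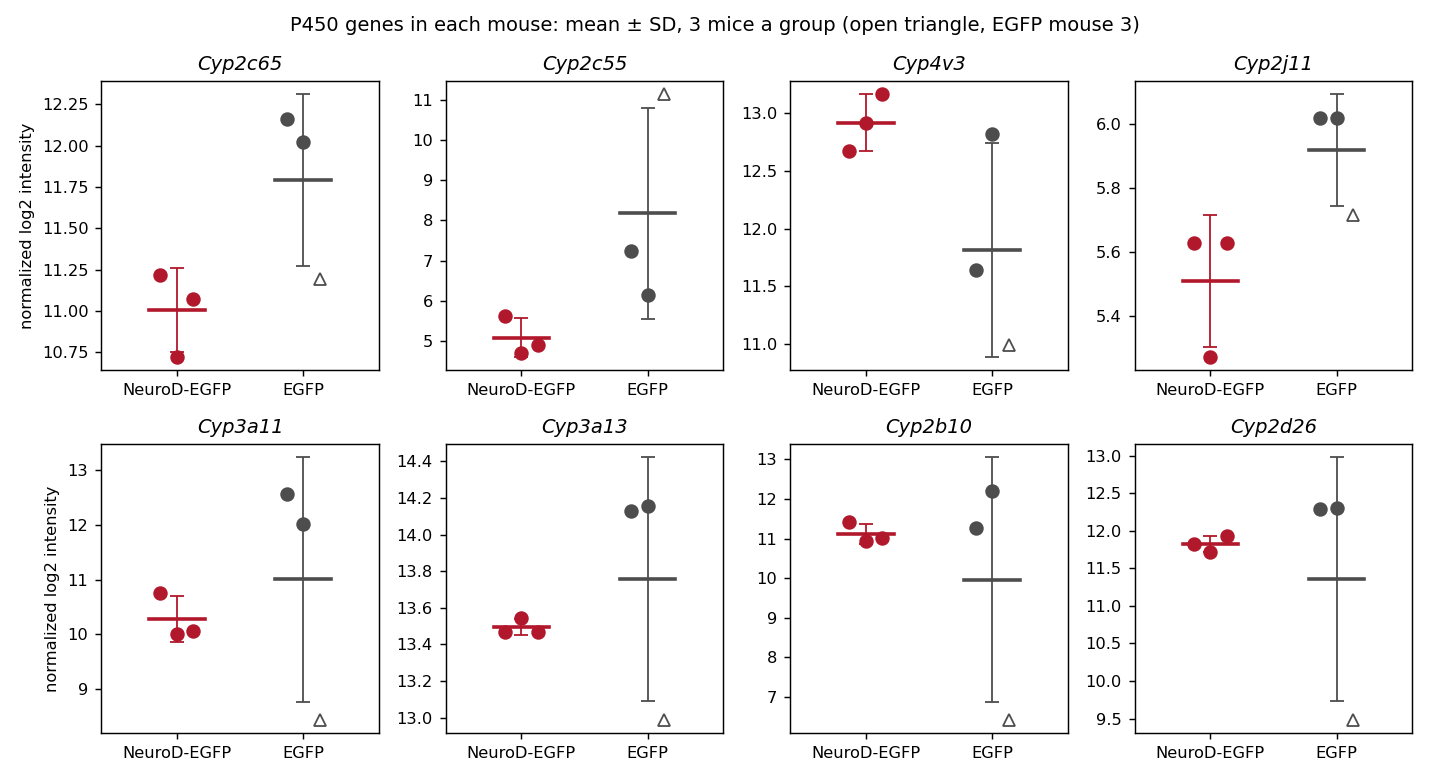
Normalized log2 intensity of 8 P450 genes in each mouse, NeuroD-EGFP mice left and EGFP mice right, with group mean and SD (n = 3 each) and EGFP mouse 3 as an open triangle. In Cyp3a11, Cyp3a13, Cyp2b10 and Cyp2d26 that mouse lies below the NeuroD-EGFP mice, while EGFP mice 1 and 2 of Cyp3a11, Cyp3a13 and Cyp2d26 lie above them.

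The CYP3A genes, which encode the leading drug-oxidizing P450s of the gut, had a negative difference in all 4 tested of 6, with a median of -0.30. Cyp3a11, a PXR target, had 10.76, 10.01 and 10.06 in the NeuroD-EGFP mice, against 12.56, 12.01 and 8.44 in the EGFP mice. EGFP mice 1 and 2 were above every NeuroD-EGFP mouse and EGFP mouse 3 below every one. Over all 6 mice the difference was -0.72 ± 0.99 (unadjusted p 0.488, adjusted p 0.956 in limma). Without EGFP mouse 3 it was -2.0 ± 0.28, 4.01-fold lower, with an unadjusted p of 0.000218 and an adjusted p of 0.0904 in limma, the smallest of any P450 gene in that fit. Without EGFP mouse 1 it was 0.06.

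Cyp3a13, an intestinal CYP3A enzyme, repeated this order of mice. Its log2 intensity was 13.47, 13.54 and 13.47 in the NeuroD-EGFP mice, against 14.13, 14.15 and 12.99 in the EGFP mice. The NeuroD-EGFP mice lay close together, between EGFP mice 1 and 2 above and EGFP mouse 3 below. The difference was -0.26 ± 0.31 with all mice (unadjusted p 0.427, adjusted p 0.953 in limma) and -0.65 ± 0.13 without EGFP mouse 3 (unadjusted p 0.00195, adjusted p 0.146 in limma). Its other 2 tested probes gave -0.30 and -0.31 over all mice.

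Cyp3a25 had 10.55, 10.48 and 10.33 in the NeuroD-EGFP mice, against 10.79, 11.16 and 10.43 in the EGFP mice. Here EGFP mouse 3 lay within the range of the NeuroD-EGFP mice and the other two EGFP mice lay above it. The difference was -0.33 ± 0.21 (unadjusted p 0.148, adjusted p 0.921 in limma), and -0.52 ± 0.17 without EGFP mouse 3. Cyp3a44, close to the detection limit, differed by -0.28 with and -0.28 without that mouse.

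The 7 tested CYP2B and CYP2D genes, of xenobiotic-metabolizing subfamilies, all had a positive difference over all mice, which was smaller or negative without EGFP mouse 3 in each except Cyp2b9. Cyp2b10, the classic CAR target, had 11.41, 10.93 and 11.01 in the NeuroD-EGFP mice, against 11.28, 12.19 and 6.42 in the EGFP mice. EGFP mouse 3 was over 4 log2 units below the next mouse, and the other two EGFP mice overlapped the NeuroD-EGFP mice or lay above them. The difference was 1.16 ± 1.35 with all mice (unadjusted p 0.419, adjusted p 0.952 in limma) and -0.62 ± 0.29 without EGFP mouse 3 (unadjusted p 0.0729, adjusted p 0.414 in limma). A second Cyp2b10 probe, detected in 1 NeuroD-EGFP and 2 EGFP mice, gave -0.36 over all mice, the only disagreement in sign among the 7 P450 genes with several tested probes.

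Nr1i3, which encodes CAR, was likewise lowest in EGFP mouse 3, with 9.67, 9.24 and 9.12 in the NeuroD-EGFP mice, against 9.90, 10.03 and 5.47 in the EGFP mice. It was named after its values had been seen, and its part in the Cyp2b10 values was not tested. Its difference was 0.88 over all mice and -0.62 without EGFP mouse 3. Cyp2b23 differed by 0.82 with all mice and by -0.54 without EGFP mouse 3. Cyp2b9, detected on 3 arrays, differed by 0.28. Without EGFP mouse 3 it differed by 0.40, detected in 2 NeuroD-EGFP mice and in neither other EGFP mouse. NeuroD-EGFP mouse 1, at 5.23, lay below EGFP mice 1 and 2, at 5.30 and 5.31, so the groups still overlapped.

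All 4 tested Cyp2d genes, of 8 on the array, had a positive difference over all mice, between 0.46 and 0.74. Cyp2d22, often compared with the human debrisoquine hydroxylase CYP2D6, had 10.33, 10.31 and 10.23 in the NeuroD-EGFP mice, against 9.70, 10.36 and 8.58 in the EGFP mice. EGFP mouse 2 lay just above the NeuroD-EGFP mice, and EGFP mice 1 and 3 below. The difference was 0.74 ± 0.41 (unadjusted p 0.11, adjusted p 0.917 in limma) and 0.26 without EGFP mouse 3. In Cyp2d26 and Cyp2d10 the sign turned without that mouse, to -0.48 and -0.33, and in Cyp2d40 the difference shrank to 0.11.

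The remaining CYP2 genes were mostly dim. Cyp2j11, of an epoxygenase subfamily, had 5.63, 5.27 and 5.63 in the NeuroD-EGFP mice, against 6.02, 6.02 and 5.72 in the EGFP mice. The NeuroD-EGFP mice were all below the EGFP mice, and the probe was detected in 2 NeuroD-EGFP and 3 EGFP mice. The difference was -0.41 ± 0.17, with an unadjusted p of 0.046 and an adjusted p of 0.917 in limma, and -0.51 without EGFP mouse 3.

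Cyp2u1, a long-chain fatty acid hydroxylase in humans, had 5.92, 6.14 and 6.14 in the NeuroD-EGFP mice, against 5.0, 5.28 and 6.16 in the EGFP mice. EGFP mouse 3 lay above every NeuroD-EGFP mouse and the other two EGFP mice below, where the probe was not detected. The probe was detected in 3 NeuroD-EGFP mice and 1 EGFP mouse, passing the filter through the NeuroD-EGFP group. The difference was 0.58 ± 0.29 (unadjusted p 0.0868, adjusted p 0.917 in limma). Without EGFP mouse 3 the fitted difference was 0.93 ± 0.16 (unadjusted p 0.000798, adjusted p 0.122 in limma), measured against undetected EGFP values. Against the lowest signal among detected probes on the arrays of EGFP mice 1 and 2, the NeuroD-EGFP mean was then at least 1.46-fold higher. This bound leaves out EGFP mouse 3, the only EGFP mouse in which the probe was detected. A higher value against undetected mice follows from the filter and that omission, so no group difference is drawn from it.

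Cyp2j9, of the same subfamily as Cyp2j11, differed by 0.28 over all mice, by 0.0063 without EGFP mouse 3 and by 0.63 without EGFP mouse 2. Cyp2f2 and Cyp2s1 differed by 0.22 and -0.15, and by 0.15 and -0.21 without EGFP mouse 3. Cyp2e1, the ethanol-oxidizing P450, was at 7.99 in EGFP mouse 3 and at 5.27 to 6.55 in the other 5 mice. Its difference was -0.13 over all mice and 0.75 without EGFP mouse 3. It was then detected in 2 NeuroD-EGFP mice and in neither other EGFP mouse. NeuroD-EGFP mouse 2, at 5.35, lay below EGFP mouse 1, at 5.43, so the groups still overlapped.

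The CYP4 enzymes hydroxylate the far end of fatty acids and leukotrienes, and 8 of 13 were tested, 5 with a positive and 3 with a negative difference. Cyp4v3, the mouse counterpart of the human fatty acid hydroxylase CYP4V2, had 12.67, 12.91 and 13.17 in the NeuroD-EGFP mice, against 11.64, 12.82 and 10.99 in the EGFP mice. EGFP mouse 2 lay within the NeuroD-EGFP range, and EGFP mice 1 and 3 below it. The difference was 1.10 ± 0.43, 2.15-fold higher, with an unadjusted p of 0.0373 and an adjusted p of 0.917 in limma. It was 0.69 ± 0.34 without EGFP mouse 3 (unadjusted p 0.0868, adjusted p 0.44 in limma) and 1.61 without EGFP mouse 2.

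Cyp4f13 had 10.45, 10.55 and 10.64 in the NeuroD-EGFP mice, against 10.09, 10.50 and 10.04 in the EGFP mice. EGFP mouse 2 exceeded NeuroD-EGFP mouse 1, and this was the only crossing. The difference was 0.34 ± 0.17 (unadjusted p 0.0859, adjusted p 0.917 in limma) and 0.25 without EGFP mouse 3. Cyp4b1, a fatty acid hydroxylase, had 9.16, 9.93 and 9.68 in the NeuroD-EGFP mice, against 9.39, 9.29 and 8.0 in the EGFP mice. Its groups overlapped through NeuroD-EGFP mouse 1. The difference was 0.70 ± 0.40 (unadjusted p 0.12, adjusted p 0.917 in limma) and 0.25 without EGFP mouse 3.

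Among the other Cyp4 genes, Cyp4f14, a leukotriene and vitamin E hydroxylase, was bright and even, at 14.04 to 14.18 in the NeuroD-EGFP mice and 13.77 to 14.24 in the EGFP mice, a difference of 0.14, and of 0.12 without EGFP mouse 3. Cyp4f18, a leukotriene hydroxylase of neutrophils, and Cyp4f16 differed by 0.17 and -0.17, and by 0.07 and -0.10 without that mouse. Cyp4f40 differed by -0.07 with EGFP mouse 3 and by 0.28 without it. Cyp4x1, detected in 1 NeuroD-EGFP and 3 EGFP mice at values near the detection limit, passed the filter through the EGFP group. It differed by -0.36, and by -0.54 ± 0.21 without EGFP mouse 3 (unadjusted p 0.0381, adjusted p 0.334 in limma).

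Of the cholesterol and bile acid P450s, 4 of 6 were tested. Cyp27a1, the sterol hydroxylase of mitochondria, had 11.03, 11.40 and 11.59 in the NeuroD-EGFP mice, against 10.77, 11.63 and 9.92 in the EGFP mice. EGFP mouse 2 was the highest of the 6 mice and EGFP mouse 3 the lowest, so the EGFP mice spanned the NeuroD-EGFP mice. The difference was 0.57 ± 0.41 (unadjusted p 0.207, adjusted p 0.929 in limma) and 0.14 without EGFP mouse 3. Cyp7a1, the rate-limiting enzyme of bile acid synthesis in liver, was detected on 3 arrays and differed by -0.23, by -0.53 without EGFP mouse 3, and by between -0.53 and -0.04 with each mouse left out in turn. Cyp7b1 and Cyp39a1, which hydroxylate oxysterols, differed by 0.17 and 0.07, and by 0.30 and 0.04 without EGFP mouse 3.

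Cyp1b1, the 1 tested gene of 3 in the CYP1 family, had 6.85, 6.77 and 6.71 in the NeuroD-EGFP mice, against 6.82, 6.70 and 7.06 in the EGFP mice. The mice were interleaved and the difference was -0.08 ± 0.15 (unadjusted p 0.61, adjusted p 0.971 in limma), and 0.02 without EGFP mouse 3. Cyp1a1 and Cyp1a2 were not tested. Cyp2r1, the vitamin D hydroxylase of the liver, had 5.68, 5.50 and 5.53 in the NeuroD-EGFP mice, against 5.69, 5.99 and 5.13 in the EGFP mice. The EGFP mice lay on both sides of the NeuroD-EGFP mice, with a difference of -0.03 ± 0.23 (unadjusted p 0.9, adjusted p 0.995 in limma), and of -0.27 without EGFP mouse 3.

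Cyp20a1, an enzyme without a settled substrate, had 6.02, 6.19 and 5.80 in the NeuroD-EGFP mice, against 6.57, 5.40 and 6.44 in the EGFP mice. Again the groups overlapped, and the difference was -0.14 ± 0.31 (unadjusted p 0.676, adjusted p 0.978 in limma), and 0.02 without EGFP mouse 3. The other 43 genes on the array were not tested, 28 of them detected on no array. They included all 5 steroid hormone P450s (Cyp11a1, Cyp11b1, Cyp11b2, Cyp17a1 and Cyp21a1), both retinoic acid hydroxylases (Cyp26a1 and Cyp26b1), and the vitamin D enzymes Cyp24a1 and Cyp27b1.

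The genes that serve or control P450s were read beside the same background. Of 23 genes for electron transfer and haem supply, 16 were tested, 12 with a positive and 4 with a negative difference, and none had an unadjusted p under 0.05. Por, the P450 reductase, and Ahr, the aryl hydrocarbon receptor, were not tested. Of 26 regulators, 20 were tested, 12 positive and 8 negative, and 1, Vdr, had an unadjusted p under 0.05. Over all genes tested, 2.2% were higher and 2.56% lower at that threshold. Without EGFP mouse 3, the 16 turned to 6 positive and 10 negative, and the 20 regulators to 11 positive and 9 negative. In that fit 1 of the 16 was lower at that threshold (Cyb5r3) and none higher. Of the 20 regulators 1 was higher (Hnf4a; 7.26% of all genes) and 4 were lower (Ahrr, Nr1i3, Pparg and Vdr; 6.71% of all genes). Vdr, the vitamin D receptor, had 11.14, 11.28 and 11.14 in the NeuroD-EGFP mice, against 11.81, 11.99 and 11.26 in the EGFP mice. EGFP mouse 3 lay within the NeuroD-EGFP range, the other two EGFP mice above it, and the difference was -0.50 ± 0.21 (unadjusted p 0.0468, adjusted p 0.917 in limma), and -0.72 without EGFP mouse 3. Nr1i2, which encodes PXR, had 9.37, 9.16 and 9.38 in the NeuroD-EGFP mice, against 9.46, 9.72 and 8.69 in the EGFP mice, a difference of 0.01 ± 0.27, and of -0.29 without EGFP mouse 3. As for Cyp3a11, Cyp3a13 and Cyp2d26, EGFP mice 1 and 2 were above the NeuroD-EGFP mice and EGFP mouse 3 below. The part of Nr1i2 in the P450 values was not tested.

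Of 3 P450 enzymes with other kinds of symbol, Ptgis, the prostacyclin synthase, had 7.42, 7.58 and 7.23 in the NeuroD-EGFP mice, against 6.38, 6.93 and 7.19 in the EGFP mice. Every NeuroD-EGFP mouse was above every EGFP mouse, with a difference of 0.58 ± 0.23 (unadjusted p 0.0383, adjusted p 0.917 in limma), and of 0.76 without EGFP mouse 3. Tbxas1, the thromboxane synthase, and Cyp51, the sterol demethylase, differed by 0.20 and -0.06, and by 0.32 and 0.82 without EGFP mouse 3.

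Of 10 enterocyte markers, 9 were tested, 7 with a positive difference and 2 with a negative one. Their median deviation from the 6-mouse mean was -0.02 to 0.18 in the NeuroD-EGFP mice and -0.08 to 0.17 in the EGFP mice. Single markers were not even across mice. Lct, Apoa4 and Fabp1 in EGFP mouse 3 stood at -8.29, -3.39 and -2.49 from the mean of the other 5 mice. They differed by 3.16, 1.23 and 0.93 between the groups, and the 2 negative markers, Alpi and Anpep, by -0.68 and -0.30. Of 6 hepatocyte markers, Alb was detected on 1 array and Fgb, Apoh and Tat on none, while Serpina1c and Ahsg differed by 0.60 and -0.53. Other marker lists moved with EGFP mouse 3 or with the groups, again as median deviations. Smooth muscle (4 of 5 tested) had -0.01 to 0.23 in the NeuroD-EGFP mice, against -0.43, -0.79 and 0.97 in the EGFP mice. Myeloid markers (4 of 6 tested) had 0.03 to 0.23 in the NeuroD-EGFP mice, against -0.03, -0.97 and 0.81 in the EGFP mice, and goblet markers (all 5 tested) had -0.25 to 0.12 in the NeuroD-EGFP mice, against -0.36, -0.17 and 0.73 in the EGFP mice. In all 3 lists EGFP mouse 3 was the highest mouse. Paneth markers (4 of 6 tested, 3 positive and 1 negative) had 0.28 to 0.32 in the NeuroD-EGFP mice, against -0.77, -0.74 and 0.44 in the EGFP mice. There too EGFP mouse 3 was the highest. For enteroendocrine markers (all 6 tested) it was the lowest, at -0.62, against 0.12 and 0.07 in EGFP mice 1 and 2 and -0.07 to 0.30 in the NeuroD-EGFP mice. Crypt (4 of 8 tested) and T cell markers (3 of 5 tested) all had a negative difference, with medians of -0.20 and -0.49. Interferon-stimulated genes (7 of 10 tested, all 7 with a negative difference, median -0.96) had -0.82 to -0.20 in the NeuroD-EGFP mice, against 1.88, 0.12 and -0.30 in the EGFP mice. The part of these markers in the P450 values was not tested.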

How the data were processed

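Jejunum RNA of 6 mice (3 NeuroD-EGFP, 3 EGFP) was hybridized to Illumina Mouse WG-6 beadchips, 1 per mouse, and mice were grouped by the submitters' labels. The authors deposited background-subtracted intensities, of which 24.4% to 26.1% per array were at or below 0, and a detection p-value deposited beside each. The deposited log2 values equal log2 of those intensities, or 4 where the intensity was not above 0, and served as an alternative. How the scanner values were made is not given in the sources used here.

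Intensities were background-corrected and quantile-normalized with neqc (normexp from detection p-values, offset 16) in limma 3.58.1 (R 4.3.3). Between 18271 and 20408 probes were detected per array, and the number of arrays limits the precision. Groups were compared with lmFit and eBayes, two-sided, with Benjamini-Hochberg adjustment over 19099 tested probes. A gene was its tested probe of highest mean. The smallest p that an exact permutation test of 3 mice against 3 allows is 0.1, two-sided. Gene symbols were those of the platform annotation, brought up to date with RefSeq except for the P450 members, which kept the platform symbol. Probes of near-identical P450 genes could share signal, which was not tested because no probe sequences were used here.

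The members, the lists and most tests were chosen with earlier results of these data known. Named with values in every mouse were the 10 P450 genes of lowest p, any with groups that did not overlap, the lowest p of each role otherwise without one, and partner genes with p under 0.05 plus Por, Ahr and Nr1i2. Cyp3a11, Cyp3a13, Cyp2b10, Cyp2e1, Cyp4f14 and Nr1i3 were added after their values were seen. Alternatives were an offset of 50, scaling to the 75th percentile, the deposited log2 values, detection on all 6 arrays or no filter, the mean of a gene's probes, a replicate block, the methods' t-test, an intensity trend with a robust prior, each mouse left out and, added after seeing the data, normalization without EGFP mouse 3. Promoters came from RefSeq (GRCm38.p6), which held 61 of the 81 genes.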

Additional observations from a re-analysis of the deposited data

How the results depend on the processing

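No P450 gene had an adjusted p under 0.05 under any alternative run. The count of genes higher at an unadjusted p under 0.05, 1 as reported, was 0 with the authors' log2 values, 0 with the methods' t-test, 0 with an intensity trend and robust prior, 2 with no detection filter, and between 0 and 7 when each mouse was left out in turn. Of all 10777 genes, 237 were higher as reported, 56 with the authors' values, 283 with the t-test and 235 with the trend. With no filter, 525 of 19057 genes were higher. The count of lower genes, 3 as reported, was 1 with an offset of 50 and 6 with the authors' log2 values. It was 1 with detection on all 6 arrays (25 genes tested), 0 with the methods' t-test and 1 with the trend and robust prior. With each mouse left out it was between 0 and 8. Without EGFP mouse 3, where it was 8, 723 of all 10777 genes were lower. Of all 10777 genes, 276 were lower as reported, 267 with offset 50 and 1172 with the authors' values. The t-test gave 333 and the trend 271. With detection on all 6 arrays, 223 of 8769 genes were lower. The median P450 difference, 0.16 as reported, was -0.0811 with the authors' log2 values, whose median over all genes was -0.27 and which gave 15 positive and 23 negative P450 genes. It was -0.0017 with no detection filter (81 genes) and -0.047 on 5 arrays normalized without EGFP mouse 3. The detection filter was applied anew on those 5 arrays, where Cyp2b9 and Cyp2e1 were not tested, so the set of genes differed. The median was 0.011 to 0.21 with each mouse left out, being 0.019 without NeuroD-EGFP mouse 3. The cause of these changes was not tested. Relative to all genes, the P450 median was 0.15 as reported and 0.19 with those values.

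With the replicate number as a block, 1 P450 gene was higher and 2 were lower, with 0 past the adjusted threshold. Of all 10777 genes, 272 were then higher and 303 lower. Mice of one number correlated by 0.31, -0.09 and 0.19 in their deviations from the group means, so the numbers were not taken as pairs.

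Differences that changed sign were Cyp2r1 under percentile scaling (0.0201), and with the authors' log2 values Cyp2c67 (-0.0569), Cyp2f2 (-0.0324), Cyp39a1 (-0.247), Cyp4f14 (-0.0325), Cyp4f18 (-0.0962) and Cyp7b1 (-0.0660). On 5 arrays normalized without EGFP mouse 3 they were Cyp1b1 (0.0202), Cyp20a1 (0.00675), Cyp2b10 (-0.62), Cyp2b23 (-0.54), Cyp2c67 (-0.28), Cyp2d10 (-0.33), Cyp2d26 (-0.48) and Cyp4f40 (0.28). With each mouse left out in turn, the differences that changed sign ranged as follows. Cyp1b1 ran from -0.16 to 0.0202, Cyp20a1 from -0.50 to 0.0798, Cyp2b10 from -0.62 to 2.27, Cyp2b23 from -0.54 to 1.68 and Cyp2c67 from -0.28 to 0.54. Cyp2d10 ran from -0.33 to 1.11, Cyp2d26 from -0.48 to 0.94, Cyp2e1 from -0.60 to 0.75, Cyp2f2 from -0.035 to 0.40 and Cyp2r1 from -0.27 to 0.16. Cyp39a1 ran from -0.0728 to 0.23, Cyp3a11 from -2.003 to 0.055, Cyp4f40 from -0.33 to 0.28 and Cyp7b1 from -0.0631 to 0.30. Values near the floor of detection, log2 5.35 to 5.53 per array, carry little information on differences.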
